A study of Homo sapiens with 32 samples.

Results

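The nuclear genes for the mitochondrial ribosome and for 4 enzymes of oxidative phosphorylation were followed by RNA-seq in RH4, an established cell line of human alveolar rhabdomyosarcoma, after exposure to compounds that inhibit or degrade the acetyltransferases CBP and p300. Members were taken by symbol: proteins of the large (MRPL) and small (MRPS) mitoribosomal subunits, complex I (NDUF with a subunit letter and number), complex III (UQCR), complex IV (COX4 to COX8 followed by A, B or C) and ATP synthase (ATP5 followed by F, M or P). The rule found 157 of the 18980 coding genes in the files: 49 MRPL, 29 MRPS, 37 NDUF, 9 UQCR, 15 COX and 18 ATP5 genes. It leaves out genes of the same complexes with other names, such as COX4I1, CYC1 and NDUFAB1, and takes in COX7A2L, an assembly factor of respiratory supercomplexes. The groups follow the symbols alone. Genes such as NDUFA4 and MRPS36 are thus counted by name, whichever complex holds their protein.

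The compounds were JQAD, IHK-44, dCBP and A485. Each was given for 2 h and for 6 h, at 1000 nM and at 100 nM, and the 16 treated libraries were set against solvent (DMSO) and against NT, an abbreviation left unexplained in the labels, each with 1 library per time. All cells are RH4, and the labels name no transgene or altered allele. A485 is known as a catalytic inhibitor of both enzymes; the labels do not say which of the other compounds inhibit and which degrade. Each condition had 1 library, so no p-value below rests on replicates of a condition. Against DMSO and between compounds, the spread lies between libraries that differ in dose and in time, after a shared effect of time. At 6 h and for time dependence, it lies between the doses of a compound and between DMSO and NT. For dose, it is the difference of the dose effect between times. Nothing in the labels ties a library to a separate culture.

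Mitochondrial ribosomes translate the few proteins encoded by mitochondrial DNA, all of them subunits of the respiratory chain or ATP synthase. Every protein of that ribosome, and most subunits of complexes I, III, IV and V, are encoded in the nucleus and imported. The promoters of these genes are known for sites of NRF1 and of the ETS factor GABP, and the coactivators PPARGC1A, PPARGC1B and PPRC1 act through such factors. CBP and p300 acetylate histones at enhancers and promoters, and housekeeping genes are often described as less tied to enhancers than cell identity genes. The 13 protein genes of mitochondrial DNA were not analysed here.

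Coding counts per library ran from 13466631 to 16799327. The share of reads outside the coding rows was 5.63% to 6.43% in the 4 controls, 8.36% to 11.3% with dCBP and 8.20% to 9.58% with IHK-44. The rhabdomyosarcoma markers MYOD1, MYOG, DES, PAX3, FOXO1 and FGFR4 were all detected in the controls, at 72.6 CPM (counts scaled to the library's total of coding reads) or more. At 6 h all 6 fell with dCBP and IHK-44 and 4 fell with A485. Of 5 markers of other cells, PTPRC, CD3E and EPCAM were at or near 0 and PECAM1 and ALB stayed under 1 CPM. In bulk RNA, fewer cells of a type and less RNA per cell cannot be told apart.

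In transcript length the members ran from 301 to 15559 bases, and 151 of 157 had a mean of at least 1 CPM. Their median mean level was 33.9 CPM, near the 31.2 CPM of all genes tested. Their summed level was 7160 to 7177 CPM in DMSO and 6889 to 7187 CPM in NT. It was 7600 to 9252 CPM with dCBP and 8082 to 9055 CPM with IHK-44, above all 4 controls in each of these 8 libraries. A485 gave 6906 to 7678 CPM and JQAD 6839 to 7696 CPM, and both overlapped the controls. Their median transcript length was 1066 bases, against 3303 bases for all genes tested. In TPM, a scale per transcript length, the highest mean levels were 448 for ATP5F1B, the catalytic beta subunit of ATP synthase, 304 for COX6A1, 190 for NDUFA13, 143 for UQCRH, 109 for MRPL37 and 106 for MRPS34.

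The muscle isoforms of complex IV were lower than their ubiquitous forms. COX6A2, the heart and muscle form of subunit 6A, had 4 counts over all 20 libraries and at most 0.71 TPM, against a mean of 304 TPM for the ubiquitous COX6A1. COX7A1, the muscle form of subunit 7A, had a mean of 12.5 TPM (5.7 to 19.1 TPM over the libraries), against 214 TPM for COX7A2. Neither COX7A1 nor COX7A2 passed the test with any compound. COX6A2, COX7B2 (0 counts), COX8C (1 count), UQCRHL (40 counts) and ATP5MGL (45 counts) were too low to be tested, which left 152 members.

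Promoters were matched by symbol to RefSeq sequences (GRCh38.p14), which held 162 start sites for 133 of the 157 members. A window of 300 bases, from 250 before the start to 50 after it, was searched on both strands. The NRF1-type word GCATGCGC was in 11.7% of member windows and 4.54% of the windows of genes tested, and the ETS-type word CCGGAAG was in 32.1% against 16.1%. The ZNF143-type word, spelled in capitals in the MRPL24 stretch shown next with its base before the closing TCC free to vary, was in 3.7% against 1.76%. Median CpG number per window was 22 for members and 25 for genes tested. By group, the NRF1-type word was in 29.4% of ATP5 and 15.8% of NDUF windows and in 6.06% of MRPS windows. The ETS-type word was in 42.4% of MRPS and 13.2% of NDUF windows.

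The 250 bases before the start are shown for 4 members whose values are given below, with matches to the NRF1-type and ZNF143-type words in capitals. MRPL24 (chr1:156741089-156741338, minus strand) and MRPS18B (chr6:30617590-30617839, plus strand) were lower at 6 h with 3 of the compounds, NDUFB4 (chr3:120596086-120596335, plus strand) was higher with the same 3, and MRPL16 (chr11:59810779-59811028, minus strand) had the highest mean change of the large subunit with dCBP and IHK-44.
MRPL24: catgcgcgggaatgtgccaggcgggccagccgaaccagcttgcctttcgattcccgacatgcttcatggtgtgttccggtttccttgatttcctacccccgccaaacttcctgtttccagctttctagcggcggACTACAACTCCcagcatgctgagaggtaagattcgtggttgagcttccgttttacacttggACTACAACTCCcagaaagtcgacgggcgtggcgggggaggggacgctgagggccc
MRPS18B: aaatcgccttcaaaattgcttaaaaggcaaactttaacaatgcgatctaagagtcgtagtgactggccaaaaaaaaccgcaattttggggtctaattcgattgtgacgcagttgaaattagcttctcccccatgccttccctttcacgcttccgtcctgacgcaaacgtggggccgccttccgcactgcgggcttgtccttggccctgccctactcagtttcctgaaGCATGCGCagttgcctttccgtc
NDUFB4: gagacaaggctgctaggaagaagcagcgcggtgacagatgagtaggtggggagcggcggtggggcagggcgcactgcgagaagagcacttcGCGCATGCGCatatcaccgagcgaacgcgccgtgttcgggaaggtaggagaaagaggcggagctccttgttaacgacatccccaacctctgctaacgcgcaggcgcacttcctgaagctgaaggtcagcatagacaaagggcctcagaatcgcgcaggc
MRPL16: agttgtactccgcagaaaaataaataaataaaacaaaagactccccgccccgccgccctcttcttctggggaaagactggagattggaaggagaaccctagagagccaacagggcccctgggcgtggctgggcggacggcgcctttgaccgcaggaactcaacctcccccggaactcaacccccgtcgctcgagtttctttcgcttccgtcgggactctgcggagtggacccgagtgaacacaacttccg
MRPL24 holds the ZNF143-type word 116 and 55 bases before its start, MRPS18B the NRF1-type word 23 bases before, and NDUFB4 overlapping NRF1-type matches on both strands 159 and 157 bases before. The MRPL16 stretch held neither word. The MRPL24 stretch lies within the RefSeq span of its gene (chr1:156737303-156742716), so it precedes an inner start of that gene. MRPL24 and MRPS18B, which fell together, carry different words, and a match describes these letters only.

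Against DMSO over both times and doses, most members were slightly higher with dCBP and with IHK-44. With dCBP 128 of 152 fitted changes lay above 0 and the median log2 change was 0.21, against 0.05 for all 13260 genes tested. With IHK-44 the count was 133 of 152 and the median 0.18, against 0.04. On a TPM scale the direction turned: the members' medians were -0.19 with both compounds, where all genes had medians of -0.25 and -0.27. The members thus stood 0.07 and 0.08 above the median gene. TPM was scaled over more rows than the coding ones. Coding rows held 39.3% to 44.5% of the TPM in DMSO and NT. They held 27.9% to 35.4% with dCBP and 31.2% to 34.6% with IHK-44. The TPM of coding genes as a whole was thus lower with both compounds, and its part in the turn was not tested. By edgeR's quasi-likelihood test at an adjusted p of 0.05, 25 members rose and 1 fell with dCBP, where 23.7% of all genes were called. With IHK-44, 18 rose and 1 fell, where 16.9% of all genes were called. The members' shares of calls, 26 and 19 of 152, were not above those of all genes. Nearly all pointed up on this scale, but on the TPM scale 19 pointed down and 0 up with each compound. With the length adjustment 17 pointed up and 8 down with dCBP, where 1530 of all genes were called higher and 1872 lower. In the same edgeR fit without that adjustment the calls of all genes were split evenly with dCBP (11.8% lower, 11.8% higher) and nearly so with IHK-44 (9.21% lower, 7.74% higher). No member changed by more than 1 on the log2 scale with either compound.

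The calls spread over all 6 groups. With dCBP 5 of 49 MRPL, 6 of 29 MRPS, 7 of 37 NDUF, 2 of 8 UQCR, 3 of 12 COX and 2 of 17 ATP5 genes rose. With IHK-44 the numbers were 3, 5, 5, 1, 1 and 3. Of all genes, 11.8% were called higher with dCBP and 7.74% with IHK-44. The overlap of the 2 compounds was not counted over all genes. Rises with both compounds were shared by 15 members, 60% of the dCBP list and 83.3% of the IHK-44 list, and these lists share their DMSO libraries. They include accessory subunits of complex I (NDUFA3, NDUFB4, NDUFB9, NDUFS5), UQCRB of complex III, COX5B of complex IV, ATP5MF and ATP5MG of the membrane part of ATP synthase, and 7 mitoribosomal proteins. The 1 gene that fell with both was COX7A2L.

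A485 and JQAD gave no call among the members by edgeR against DMSO. With A485 6 members had an unadjusted p under 0.05 and 0.271% of all genes were called. With JQAD 1 member did and 0% of all genes were called, and NT against DMSO also gave 1 member and 0%. DESeq2 called 1 member with A485 and 0 with JQAD. Median changes of the members were -0.04 with A485 and 0.03 with JQAD, and the median 95% interval of a member reached 0.26 to either side, which covers the median change seen with dCBP.

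Each treated library was also divided by the DMSO library of its own time point. Computed as log2(CPM + 1), where changes of low genes come out too small, the median member was 0.28 ± 0.13 higher with dCBP and 0.29 ± 0.08 higher with IHK-44 (SD over the medians of 4 libraries that differ in dose and time). It was 0.03 ± 0.09 with A485 and 0.02 ± 0.09 with JQAD. Less the median of all genes in each library, the members stood at 0.06 to 0.27 with dCBP and 0.13 to 0.19 with IHK-44. On that measure A485 ran from -0.10 to 0.05 and JQAD from -0.06 to 0.11. Thus dCBP 100 nM at 2 h (0.06) and 1000 nM at 6 h (0.09) lay below the highest JQAD value. The highest single library was dCBP 100 nM at 6 h, with a median of 0.43 where all genes had 0.16. There 44 of 151 members were at least 1.5-fold higher and 1 was lower, and 21.7% of all genes were at least 1.5-fold higher. IHK-44 1000 nM at 6 h followed with 27 members higher and none lower, against 20.2% of all genes higher. At 6 h, dCBP 1000 nM had 12 members higher, where 18.8% of all genes were, and IHK-44 100 nM had 15, where 14.7% were. At 2 h the 1000 nM libraries had 16 higher with dCBP and 10 with IHK-44, where 8.56% and 7.01% of all genes were. The 100 nM libraries of 2 h had 3 higher with dCBP and 4 with IHK-44 of 151, below the shares of all genes, 6.76% and 3.62%. In the NT libraries no member reached 1.5-fold.

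**Figure D1:**
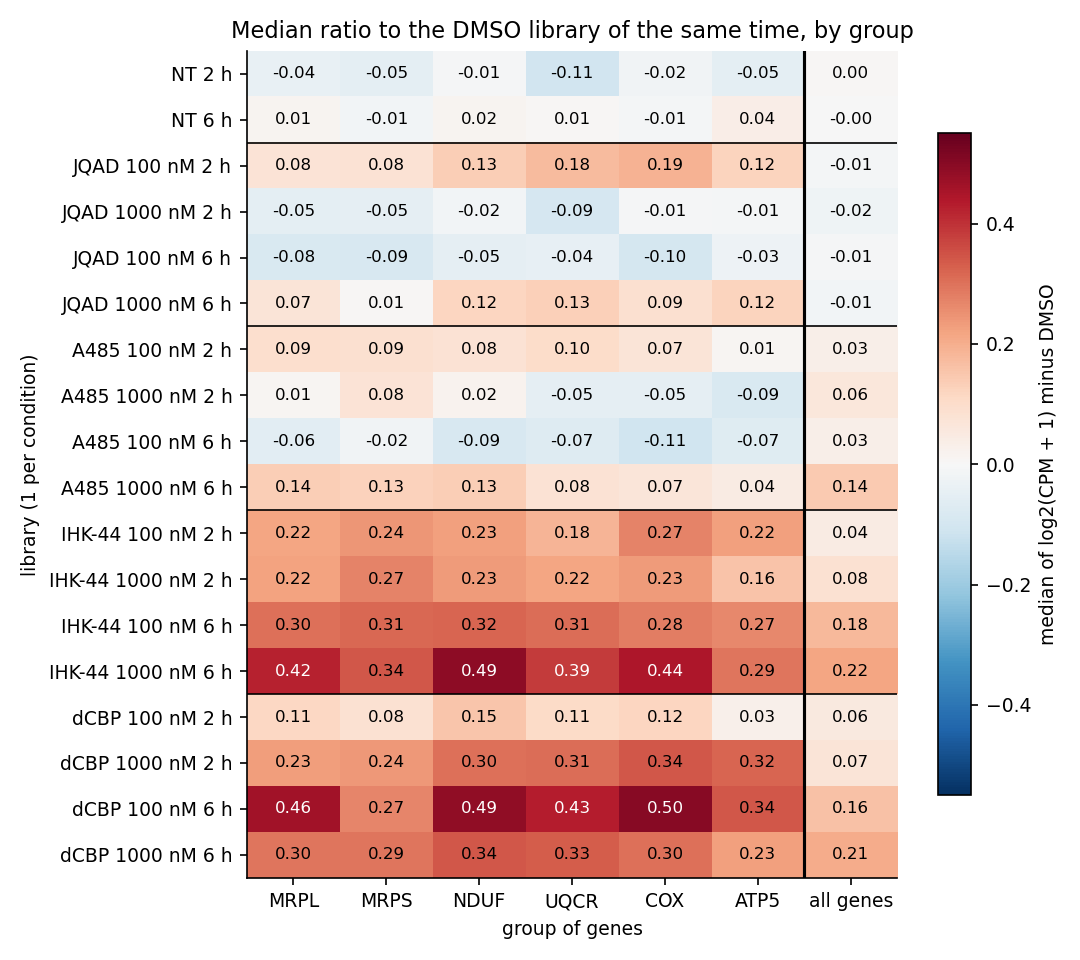
Median over the members of each group of the log2(CPM + 1) ratio to time-matched DMSO; rows are single libraries, columns the 6 groups and, right of the black line, all 12174 genes with a mean of at least 1 CPM. The 8 dCBP and IHK-44 rows are positive in every group, from 0.03 to 0.50, and for all genes, from 0.04 to 0.22. A485 and JQAD rows take both signs. On the TPM scale, where coding rows held a smaller share than in the controls, the dCBP and IHK-44 medians turn negative.

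No group stood far from the others. At dCBP 100 nM and 6 h the medians were 0.50 for COX, 0.49 for NDUF, 0.46 for MRPL, 0.43 for UQCR, 0.34 for ATP5 and 0.27 for MRPS. At IHK-44 1000 nM and 6 h they were 0.44, 0.49, 0.42, 0.39, 0.29 and 0.34 in the same order. ATP5 was among the 2 lowest groups in both, and ATP5F1B, its most abundant member, did not pass the test, with fitted values of -0.07 and -0.05 against DMSO (SE 0.07 each).

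At 6 h the 2 doses of a compound were set against DMSO and NT together, 2 libraries on each side, with the spread taken from all 20 libraries. With dCBP 43 members rose and 8 fell, where 45.5% of all genes were called (23.2% higher, 22.4% lower). With IHK-44 28 rose and 5 fell, where 42.1% of all genes were called (20.7% higher, 21.4% lower). With A485 2 rose and 5 fell, where 16.6% were called (7.87% higher, 8.7% lower). JQAD gave 0 calls among members and in all genes, with 3 members at an unadjusted p under 0.05. The share of members that rose was 28.3% with dCBP, above that of all genes, and 18.4% with IHK-44, below it. With the length adjustment given below, 21 of 152 members rose with dCBP, where 3048 of 13260 genes did. With IHK-44 24 members and 2738 genes then rose. The excess over all genes with dCBP was thus not kept. Median changes of the members were 0.21 with dCBP and 0.21 with IHK-44, and those of all genes 0.06 with both.

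The NDUF group held the most rises with dCBP at 6 h: 15 of its 37 genes rose and none fell, with a median of 0.34. Next to it were 12 of 49 MRPL genes, 8 of 29 MRPS, 4 of 12 COX and 3 of 8 UQCR genes, and 1 of 17 ATP5 genes. With IHK-44 8 NDUF, 7 MRPL, 7 MRPS, 3 ATP5, 2 COX and 1 UQCR genes rose. Falls were mostly in the ribosome and complex IV: MRPL24, MRPL50, MRPS16, MRPS18B, MRPS28, COX7A2L, COX7B and ATP5PB with dCBP, and MRPL24, MRPS16, MRPS18B, MRPS28 and COX7A2L with IHK-44. These 5 make up 62.5% of the dCBP list and the whole IHK-44 list. The lists share their controls, and the overlap was not counted over all genes.

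**Figure D2:**
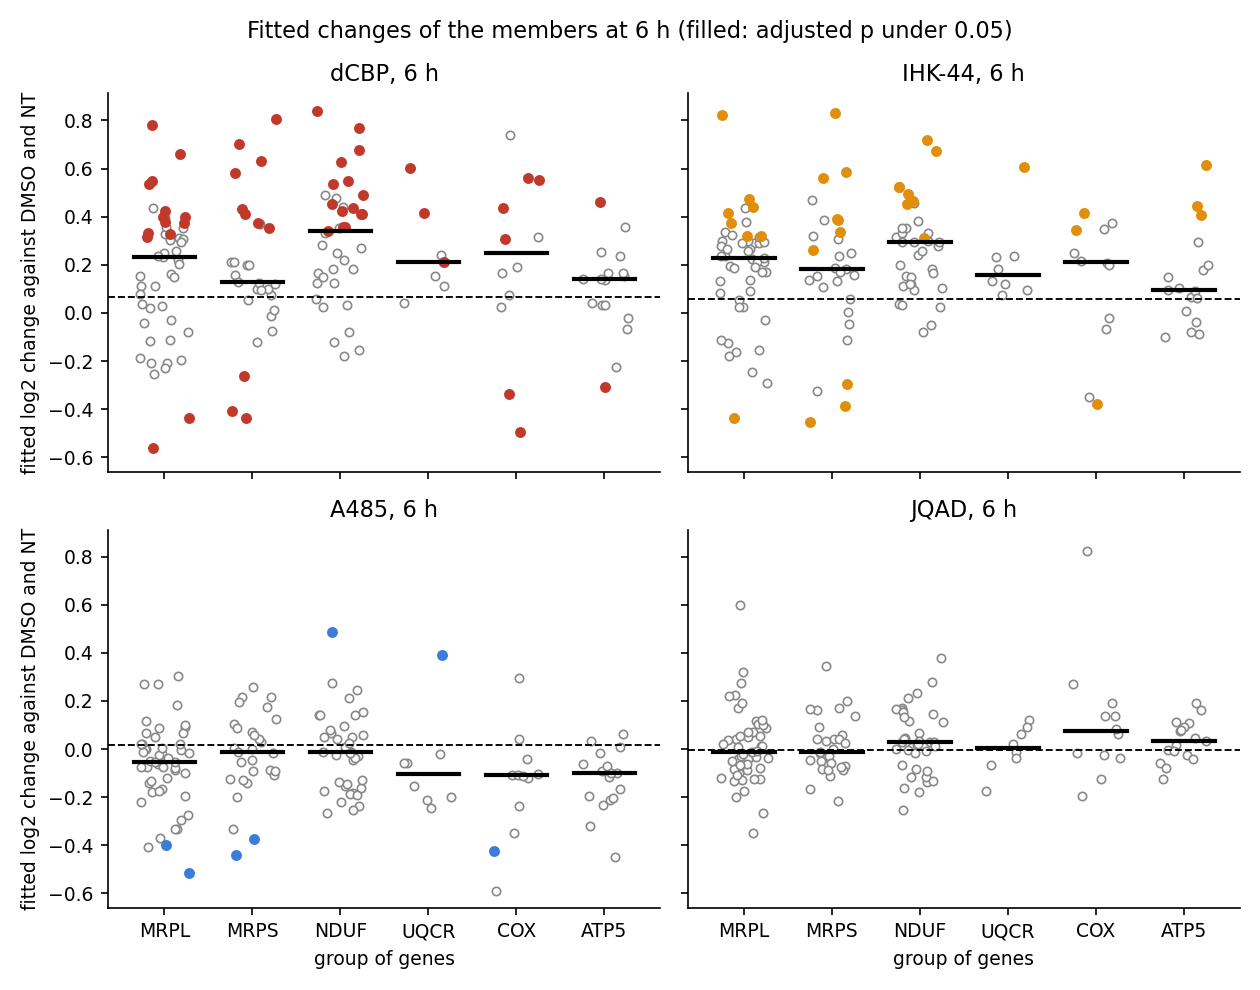
Fitted log2 change of each of the 152 tested members at 6 h against DMSO and NT, by group and compound. Filled points passed an adjusted p of 0.05, black bars are group medians and the dashed line is the median of all genes tested; 43 points rose with dCBP and 28 with IHK-44, 7 moved with A485 and none with JQAD.

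NDUFB4, an accessory subunit in the membrane arm of complex I, had the highest mean change of its group against DMSO with dCBP and IHK-44; at 6 h with IHK-44 NDUFA3 was higher, at 0.72. It stood at 12.5 and 11.2 CPM in DMSO at 2 h and 6 h and at 12.6 and 13.8 CPM in NT. In dCBP it was 14.4 CPM (100 nM) and 17.3 CPM (1000 nM) at 2 h and 23.0 and 27.1 CPM at 6 h, and in IHK-44 19.6, 20.9, 21.7 and 23.3 CPM in the same order. All 8 libraries lay above all 4 controls. At 6 h the fitted log2 change was 0.84 (SE 0.15, edgeR adjusted p = 0.000246) with dCBP, 0.67 (SE 0.14, adjusted p = 0.00145) with IHK-44 and 0.49 (SE 0.15, adjusted p = 0.0324) with A485. A485 gave 15.1 and 12.7 CPM at 2 h and 16.5 and 20.9 CPM at 6 h, so that its 1000 nM library at 2 h overlapped the controls. NDUFB4 has 12 named pseudogenes in RefSeq, and reads shared with them cannot be told apart here.

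UQCRB, the ubiquinone-binding protein of complex III, was the other gene that rose with 3 compounds at 6 h. It held 32.3 to 34.4 CPM in the 4 controls. The A485 libraries ran from 37.8 to 49.1 CPM, dCBP from 43.8 to 57.4 CPM and IHK-44 from 42.2 to 58.5 CPM, all above every control. JQAD gave at most 36.0 CPM in 3 libraries and 45.7 CPM at 100 nM and 2 h, with 3 of 4 libraries above all controls. The mean transcript length of UQCRB was 8468 bases, long for its group (median 1573), and its mean level 4.56 TPM. The changes at 6 h were 0.60 (SE 0.11, adjusted p = 0.000516) with dCBP, 0.61 (SE 0.11, adjusted p = 0.000514) with IHK-44 and 0.39 (SE 0.11, adjusted p = 0.0286) with A485 by edgeR. The A485 call was lost with the length adjustment (0.30, adjusted p = 0.163) and without A485 1000 nM, DMSO or NT at 6 h. UQCRC2, a core protein of the same complex, changed by 0.21 (SE 0.08, adjusted p = 0.0469) with dCBP at 6 h, a call lost in 12 of 20 fits that leave out 1 library.

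MRPL16, a protein of the large mitoribosomal subunit, was at 18.01 and 19.6 CPM in DMSO and 19.3 and 22.5 CPM in NT. It reached 25.4 and 30.2 CPM with dCBP at 2 h and 40.3 and 33.7 CPM at 6 h (100 nM, then 1000 nM). With IHK-44 it was 30.4 and 30.6 CPM at 2 h and 38.2 and 45.5 CPM at 6 h, so that neither compound overlapped the controls. By edgeR the change against DMSO was 0.67 with dCBP (SE 0.14, adjusted p = 0.00616) and 0.81 with IHK-44 (SE 0.14, adjusted p = 0.00208). MRPS26 of the small subunit changed by 0.67 (SE 0.17) and 0.58 (SE 0.17), from 32.0 to 42.9 CPM in the controls to 52.0 to 89.4 CPM with dCBP and 55.8 to 75.7 CPM with IHK-44. MRPS33 of the small subunit, named after its values were seen, changed by 0.83 (SE 0.14, adjusted p = 0.000185) with IHK-44 at 6 h.

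ATP5MF, a small subunit in the membrane part of ATP synthase, separated dCBP and IHK-44 from A485. It held 19.5 to 20.6 CPM in the 4 controls and 17.5 to 20.9 CPM with A485. It held 28.9 to 32.7 CPM with dCBP and 29.1 to 36.3 CPM with IHK-44, with no overlap between these and A485. COX5B of complex IV showed the same order, with 44.5 to 49.0 CPM in controls, 44.2 to 51.4 CPM with A485, 58.1 to 83.3 CPM with dCBP and 60.5 to 67.0 CPM with IHK-44. By edgeR ATP5MF changed against DMSO by 0.51 with dCBP (SE 0.10, adjusted p = 0.00422) and 0.55 with IHK-44 (SE 0.10, adjusted p = 0.00264); with an adjustment for transcript length neither was called. On the TPM scale MRPL16, NDUFB4, UQCRB, COX5B and ATP5MF were not called against DMSO with either compound, and COX5B turned to -0.05 with IHK-44, while COX7A2L was called lower with both. ATP5MF overlaps the read-through gene ATP5MF-PTCD1, and has 7 pseudogenes in RefSeq.

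COX7A2L, the supercomplex assembly factor, fell with 3 compounds. It held 65.5 to 68.3 CPM in the 4 controls. All 4 libraries were lower with A485 (50.6 to 60.3 CPM), with dCBP (51.5 to 54.7 CPM) and with IHK-44 (53.9 to 62.1 CPM), and JQAD ran from 61.9 to 71.6 CPM, around the controls. At 6 h the changes were -0.42 (SE 0.10, adjusted p = 0.0125) with A485, -0.50 (SE 0.10, adjusted p = 0.000977) with dCBP and -0.38 (SE 0.10, adjusted p = 0.00675) with IHK-44 by edgeR. The fall was already present at 2 h, with 50.6 CPM at A485 1000 nM and 54.6 and 54.7 CPM with dCBP.

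MRPL24 of the large subunit and MRPS18B of the small subunit fell with the same 3 compounds at 6 h. MRPL24 held 27.2 and 28.3 CPM in DMSO, but 21.99 and 23.2 CPM in NT, so the 2 kinds of control differed. At 6 h it was 17.1 and 21.2 CPM with A485, 19.2 and 23.1 CPM with dCBP and 21.95 and 20.8 CPM with IHK-44 (1000 nM, then 100 nM). The dCBP 100 nM library overlapped NT and the other 5 lay below all controls, IHK-44 1000 nM by little. The edgeR changes were -0.52, -0.44 and -0.44 (SE 0.15 each, adjusted p = 0.0283, 0.0252 and 0.0251), and the gene overlaps HDGF on the genome. MRPS18B went from 40.0 and 41.2 CPM in the controls at 6 h to 30.3 and 36.2 CPM with A485, 31.8 and 35.1 CPM with dCBP and 34.6 and 32.0 CPM with IHK-44. The A485 call of MRPS18B (adjusted p = 0.0429) was lost in 14 of 20 fits that leave out 1 library, with the length adjustment and with library size scaling. MRPL24 lost its A485 call with the length adjustment and its dCBP and IHK-44 calls with library size scaling. With 1 library left out, its changes ran from -0.72 to -0.32 with A485, -0.59 to -0.29 with dCBP and -0.57 to -0.29 with IHK-44. Without DMSO at 6 h, which leaves NT as the control of that time, they were -0.36, -0.29 and -0.29. With A485, MRPL15 (-0.40) and MRPS12 (-0.44) also fell.

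**Figure D3:**
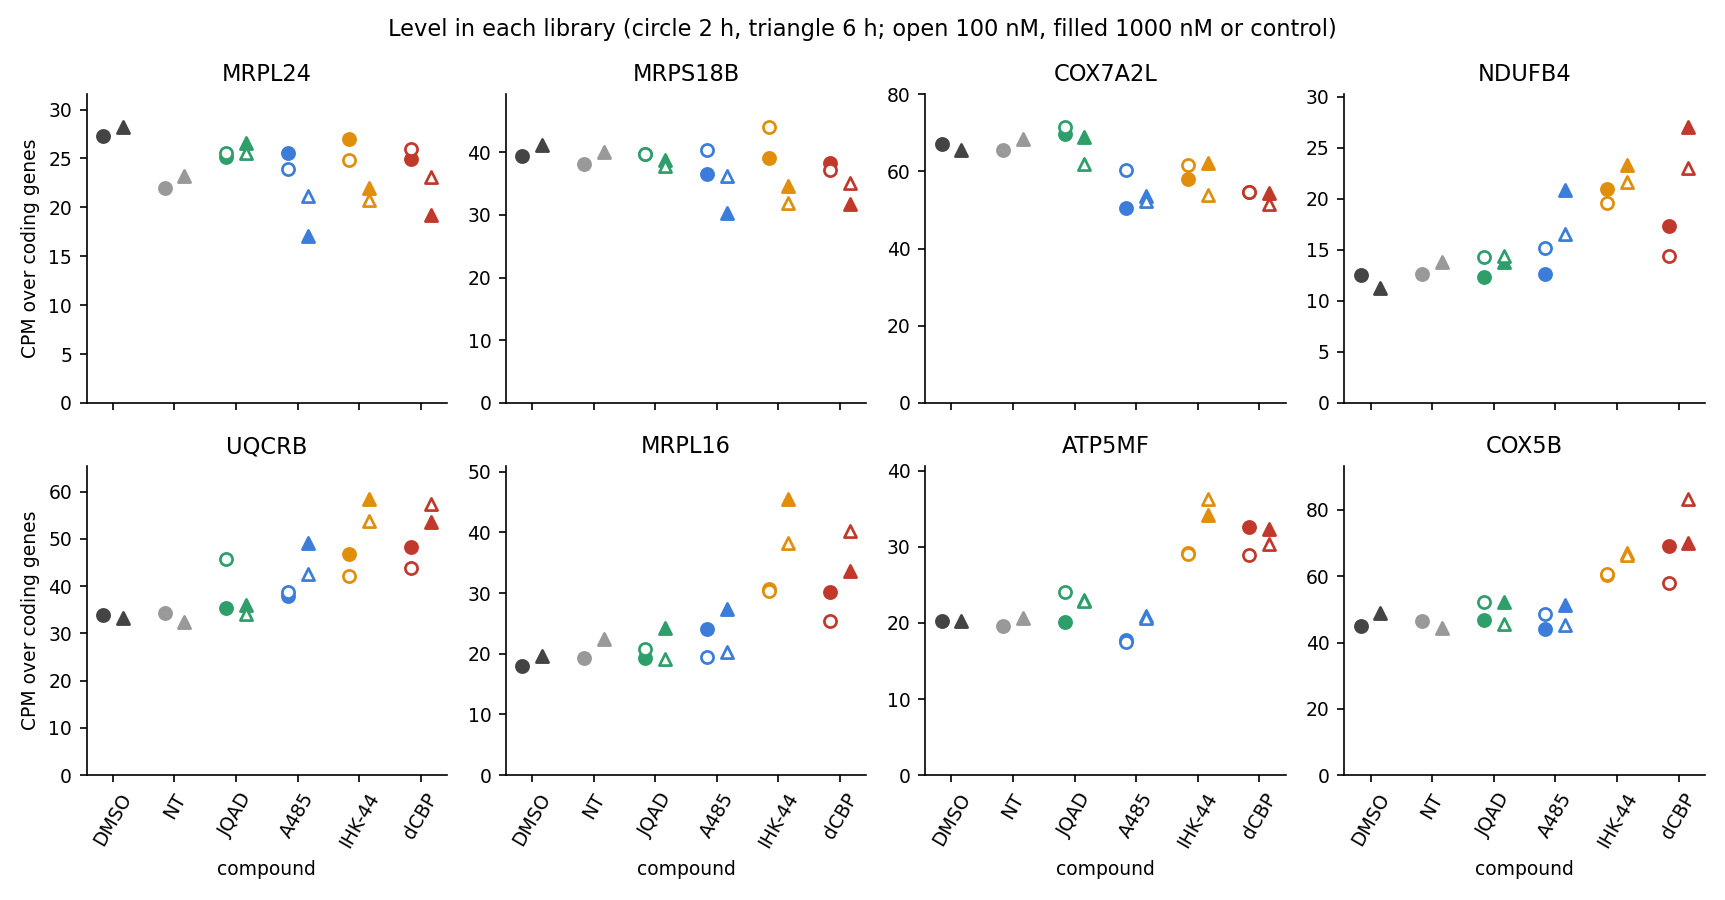
CPM in every library for 8 members, by compound; circles are 2 h, triangles 6 h, open symbols 100 nM and filled symbols 1000 nM or a control. MRPL24, MRPS18B and COX7A2L are lower at 6 h with A485, IHK-44 and dCBP, though MRPL24 at dCBP 100 nM overlaps NT. NDUFB4 and UQCRB are higher at 6 h with these 3. ATP5MF and COX5B separate IHK-44 and dCBP from A485. MRPL16 separates IHK-44 from A485, while dCBP (from 25.4 CPM) overlaps A485 (up to 27.3 CPM).

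Whether the response differed between 2 h and 6 h was tested as an interaction. With dCBP 2 members passed, where 9.06% of all genes did: COX7B, a complex IV subunit, with -0.60 (SE 0.16, adjusted p = 0.0328) and MRPL15 with -0.48 (SE 0.14, adjusted p = 0.0409) by edgeR. COX7B went from 71.1 and 74.7 CPM at 2 h to 52.3 and 65.8 CPM at 6 h with dCBP, while the controls went from 58.7 and 58.9 CPM to 66.8 and 66.5 CPM. MRPL15 held 47.2 and 46.0 CPM at 2 h and 42.0 and 41.4 CPM at 6 h with dCBP, and its controls 36.8 and 37.0 CPM, then 44.5 and 40.8 CPM. The call of COX7B was lost in 10 and that of MRPL15 in 15 of 20 fits that leave out 1 library, and without dCBP 1000 nM at 6 h 9 members were called higher and 4 lower. IHK-44 gave 0 calls by edgeR with 10 members at an unadjusted p under 0.05, and DESeq2 gave 1, where edgeR called 9.89% of all genes (7.76% lower, 2.13% higher). A485 and JQAD gave 0, with 4 and 2 members at that level, where 0.00754% and 0% of all genes were called. The median interval of a member was 0.40 to either side, which leaves room for differences of the size of the changes themselves.

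Raising the dose from 100 nM to 1000 nM moved no member by edgeR with any of the 4 compounds. The numbers at an unadjusted p under 0.05 were 0 for A485, dCBP and IHK-44 and 2 for JQAD, and DESeq2 also gave 0 calls in all 4. Of all genes, 0.929% were called with A485 (0.853% lower, 0.0761% higher), 0.107% with IHK-44 and 0% with dCBP and JQAD. Median differences of the members were -0.02 with A485, -0.00 with dCBP, 0.00 with IHK-44 and 0.01 with JQAD, with a median interval of 0.34 to 0.35 to either side. For NDUFB4 the interval of the dose difference ran from -0.12 to 0.57 with dCBP and from -0.27 to 0.41 with IHK-44. With dCBP at 6 h the lower dose had the higher median ratio, 0.43 at 100 nM and 0.30 at 1000 nM.

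The compounds were given at the same doses and times, and all 6 pairs were compared over their 4 libraries, with p-values adjusted over all genes in each pair. A485 was lower than dCBP in 9 members and lower than IHK-44 in 10, and higher in none, where 0.724% (0.475% lower, 0.249% higher) and 0.882% (0.505% lower, 0.377% higher) of all genes were called. ATP5MF had the lowest adjusted p in both pairs by edgeR, with -0.66 (SE 0.08, adjusted p = 0.00124) against dCBP and -0.70 (SE 0.08, adjusted p = 0.000898) against IHK-44. NDUFB1 of complex I differed by -0.69 from dCBP and did not pass (adjusted p = 0.0574). The others included COX5B and NDUFA3 in both pairs, MRPL41, NDUFB2 and COX8A against dCBP, and MRPL16, MRPS33 and ATP5PO against IHK-44. The median member was 0.22 lower with A485 than with each. With an adjustment for transcript length the counts fell to 0 and 3, where 18 and 38 of 13260 genes were called. With each dose and time as a block, which matches the libraries of the compounds, they fell to 2 and 3. There 51 and 58 genes were called, so that calls over all genes fell as well.

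Against JQAD, dCBP was higher in 30 members and lower in 2, where 35.3% of all genes were called. IHK-44 was higher in 32 and lower in 2, where 32.5% were called, and the 2 lower genes were COX7A2L and MRPS16 in both pairs. A485 was lower than JQAD in 2 members, COX7A2L (-0.40) and ATP5MF (-0.31), where 4.91% of all genes were called (1.7% lower, 3.21% higher). With the block 1 member passed, where 634 of 13260 genes did. Between dCBP and IHK-44 edgeR called 0 members and 0% of all genes, with 3 members at an unadjusted p under 0.05, and DESeq2 called 0 members. The median interval of that difference reached 0.21 to either side. For ATP5MF it ran from -0.20 to 0.12 and for MRPL16 from -0.38 to 0.08, so that modest differences between these compounds remain possible. No chemical structure is given in the labels, and none was compared.

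Of the genes known to control these complexes, more fell than rose. Of 14 regulators, 7 fell and 2 rose at 6 h with dCBP, 6 fell and 2 rose with IHK-44, 3 fell with A485 and none was called with JQAD, where 45.5%, 42.1%, 16.6% and 0% of all genes were called. MYC fell from 63.4 to 75.6 CPM in the controls to 1.47 and 2.05 CPM with dCBP and 0.833 and 1.26 CPM with IHK-44 at 6 h. MYCN went from 61.6 to 73.2 CPM to 2.69 and 3.24 CPM, and to 1.02 and 3.33 CPM, at that time. The coactivator PPARGC1B changed with dCBP by -1.29 (SE 0.24), with IHK-44 by -1.58 (SE 0.24) and with A485 by -0.74 (SE 0.24), and PPRC1 by -1.14 (SE 0.17) and -1.21 (SE 0.17) with dCBP and IHK-44. A485 gave 5.54 to 43.7 CPM of MYC, and its change of -1.59 at 6 h did not pass (adjusted p = 0.0942). PPARGC1A was called lower with dCBP and IHK-44, at no more than 1.5 CPM in any library.

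NRF1, a transcription factor of respiratory genes, rose. It held 25.6 to 35.3 CPM in the controls, 42.5 to 49.5 CPM with dCBP and 43.3 to 47.1 CPM with IHK-44, with no overlap. The change at 6 h was 0.55 (SE 0.12) with each compound, adjusted p = 0.00118 and 0.0012 by edgeR. TFB1M, which modifies mitochondrial ribosomal RNA, rose by 0.61 (SE 0.16) and by 0.74 (SE 0.16), while TFB2M, a mitochondrial transcription factor, fell by 0.47 (SE 0.15) and 0.51 (SE 0.15). GABPA, GABPB1, ESRRA, TFAM and POLRMT were not called at 6 h with any compound. The relation between these regulators and the members was not tested.

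**Figure D4:**
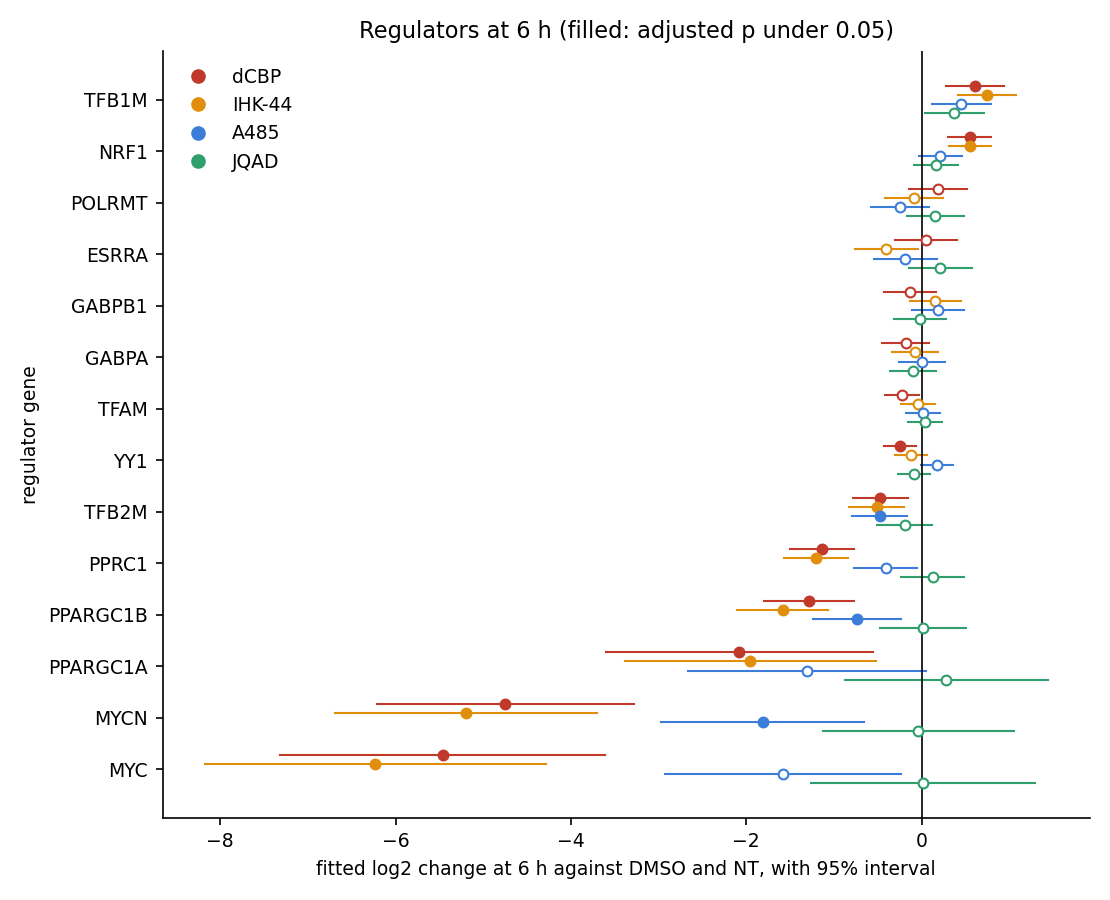
Fitted log2 change at 6 h against DMSO and NT for 14 regulators, with 95% intervals, by compound; filled points passed an adjusted p of 0.05. MYC and MYCN lie below -4 with dCBP and IHK-44, PPRC1, PPARGC1B and PPARGC1A between -1 and -2.1, and NRF1 and TFB1M above 0.5.

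Other mitochondrial lists had calls at or below the share of all genes at 6 h (dCBP 45.5%, IHK-44 42.1%, A485 16.6%), except that A485 called 3 of 12 import genes. Of 30 assembly factors, 7 rose and 1 fell with dCBP at 6 h, and 5 rose with IHK-44. COX17, which delivers copper to complex IV, changed by 0.76 (SE 0.25) and 0.74 (SE 0.25), and ATPAF1 and ATPAF2, assembly factors of ATP synthase, rose with both. Of 12 import genes, 4 fell and none rose with dCBP and with IHK-44, and 3 of these fell with A485. TIMM9, a chaperone of the intermembrane space, changed by -1.20 (SE 0.21) with dCBP, and TIMM23, the inner membrane channel, by -0.35 (SE 0.11). Of 17 genes of mitochondrial translation, 2 rose and 1 fell with dCBP and 3 rose and 1 fell with IHK-44, with ERAL1 and MTERF4 rising in both. Of 12 enzymes of the tricarboxylic acid cycle, IDH3A and SUCLG1 rose with dCBP and SUCLA2 with IHK-44. Complex II had 1 of 4 genes called, SDHA with dCBP. Among other oxidative phosphorylation genes outside the naming rule, NDUFAB1 rose with dCBP and IHK-44, ATP5IF1 rose with IHK-44 and CYCS fell with dCBP.

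With dCBP and IHK-44 short transcripts rose more than long ones. Across members the Spearman correlation of the change against DMSO with transcript length was -0.39 with dCBP and -0.27 with IHK-44 (n = 152 genes of the same libraries). Across all 13260 genes it was -0.14 and -0.13. Trends with length were not particular to these compounds. In single-library ratios the members' correlation ran from -0.43 to -0.07 with dCBP, -0.27 to -0.12 with IHK-44 and -0.33 to 0.06 with JQAD. For all genes JQAD ran from -0.28 to 0.26, and NT at 2 h had 0.28. The 76 shorter members had a median change of 0.25 with dCBP and the 76 longer ones 0.11; with IHK-44 these were 0.21 and 0.13. When a trend with length was removed within each library, the members' median fell to 0.05 with dCBP and 0.08 with IHK-44, against 0.02 and 0.01 for all genes. The calls were then 17 higher and 8 lower with dCBP and 11 higher and 2 lower with IHK-44. Of all genes, 25.7% and 18.3% were called in these fits. Of the 25 and 18 rises, 17 and 10 were still called. At 6 h the same adjustment left 21 higher and 14 lower with dCBP and 24 higher and 9 lower with IHK-44. There 47.2% and 44.2% of all genes were called. The members' shares of calls with the adjustment were below those of all genes. The share of reads outside coding rows, given above, was higher with dCBP and IHK-44 than in the controls. Its part in the result was not tested.

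**Figure D5:**
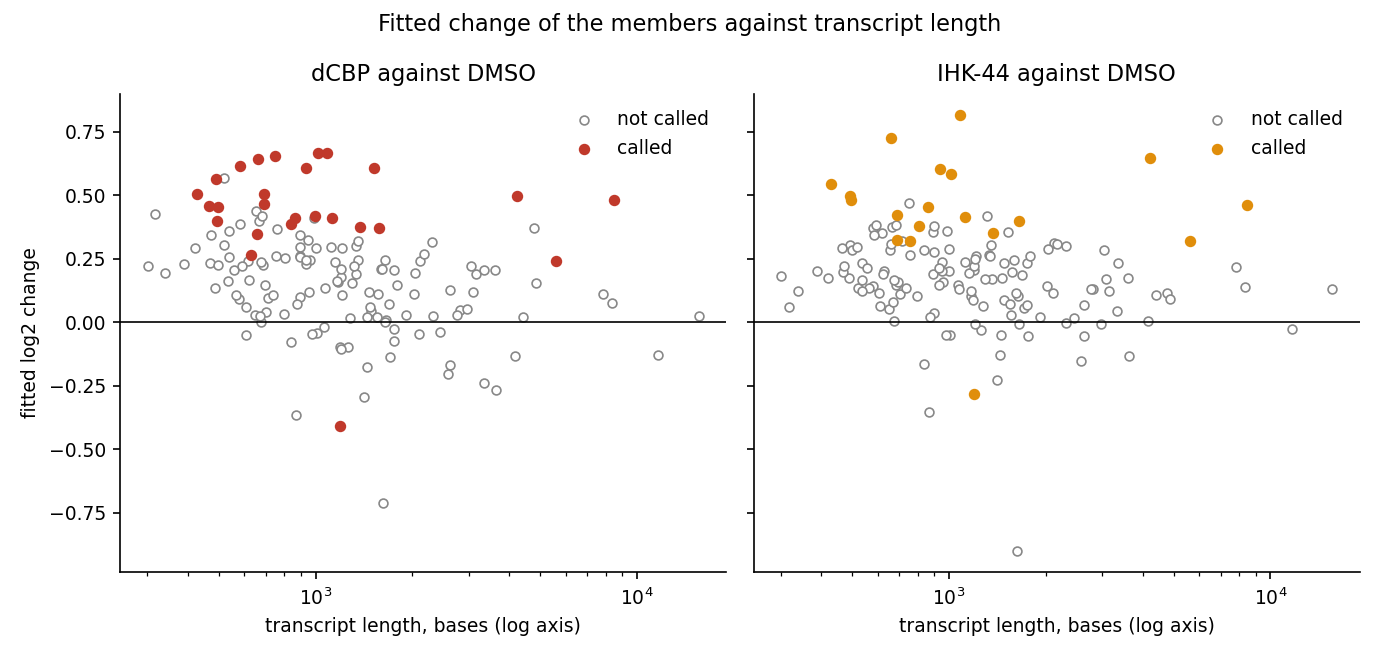
Fitted log2 change against DMSO of the 152 tested members by transcript length in bases (log axis), for dCBP and IHK-44; filled points passed an adjusted p of 0.05. Most rises are among the shorter transcripts, with Spearman correlations of -0.39 and -0.27. On the TPM scale, where coding rows held a smaller share than in the controls, the members' medians are negative.

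How far the calls rest on single libraries was read by leaving out each in turn. Calls over all genes were not compared in these fits. A loss of calls among the members thus cannot be told from a loss over all genes. Without the DMSO library of 6 h the dCBP calls against DMSO went from 26 to 0, without that of 2 h to 8, without dCBP 100 nM at 6 h to 16 and without dCBP 1000 nM at 2 h to 17. The IHK-44 calls went from 19 to 1 and 6 without the same DMSO libraries, and to 5 and 9 without the IHK-44 libraries of 6 h at 1000 nM and 100 nM. At 6 h the dCBP calls went from 51 to 19 without dCBP 100 nM, 20 without DMSO and 23 without NT, and the IHK-44 calls from 33 to 14 and 19 without an IHK-44 library, 16 without DMSO and 17 without NT, but to 51 and 53 without a dCBP library. The 7 A485 calls at 6 h went to 0 without A485 1000 nM, DMSO or NT, and to 11 without a dCBP library. NDUFB4, UQCRB, MRPL16 and ATP5MF were called at 6 h with dCBP and IHK-44 in all 20 such fits.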

How the data were processed

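The authors' deposited expected counts, TPM, FPKM and a normalized count column were available for 18980 coding genes in each of 20 libraries. The deposited expected counts are estimated reads per gene, 88.2% of them whole numbers. The deposited normalized column equals CPM, counts scaled to the total over the coding rows. The deposited TPM and FPKM values were scaled over more rows than the coding ones, which hold 27.9% to 53.9% of the TPM. The submitters' processing notes list STAR 2.5.3a and RSEM 1.3.3, and the genome builds hg38 and mm10, with no role given. FPKM served only to recover the reads outside the coding rows.

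Expected counts were rounded and fitted with edgeR 4.0.16 (quasi-likelihood test, TMM scaling, filterByExpr, Benjamini-Hochberg adjustment over all genes, threshold 0.05). One fit had compound and time (13 residual degrees of freedom), 1 had each compound and time with DMSO and NT pooled (10), and 1 had dose within compound and time (4). Standard errors are the fitted change over the root of F. Ratios of single libraries used log2(CPM + 1) and genes with a mean of at least 1 CPM. The fits were tested on simulated data. The alternatives were DESeq2 1.42.0, limma 3.58.1 on log2(TPM + 1), library size scaling, no filter, pooled or NT controls, each library left out, other pseudocounts and folds, a length adjustment and, for the pairs, each dose and time as a block (10 residual degrees of freedom); the block, and the length adjustment of the 6 h, time and pair comparisons, were chosen after seeing the data. The named genes are, in each group, the member with the lowest and the highest mean change with dCBP and IHK-44 and the member with the highest mean TPM, then the complex IV isoforms, the regulators and up to 3 called members each of A485 and JQAD at 6 h and of dose and time; others named were chosen after their values were seen.

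Members and lists were chosen with earlier results of these data known. Of the members, 155 matched RefSeq genes, 37 overlap another coding gene and 86 have named pseudogenes; reads shared with these are uncertain, since strand and the treatment of shared reads are not given in the sources used here. Chromatin and run-on samples were not analysed here. Precision is limited by counting error and by the 20 libraries, with 1 per condition.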

Additional observations from a re-analysis of the deposited data

Results flagged for a closer look

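Differences between compounds, and between times, are listed here because the difference itself was tested. A485 differed from dCBP in 9 members (5.92% of those tested) and from IHK-44 in 10 (6.58%), all lower with A485. Of all genes, 0.724% and 0.882% were called in these pairs. A485 differed from JQAD in 2 members (1.32%), COX7A2L and ATP5MF, where 4.91% of all genes were called. dCBP differed from JQAD in 32 members (21.1%) and IHK-44 from JQAD in 34 (22.4%). Both shares were below those of all genes, 35.3% and 32.5%. The response to dCBP differed between 2 h and 6 h in 2 members (1.32%), COX7B and MRPL15. There 9.06% of all genes were called. All are edgeR calls at an adjusted p of 0.05. With each dose and time as a block the 3 A485 pairs gave 2 (dCBP), 3 (IHK-44) and 1 (JQAD). In these fits 51, 58 and 634 of 13260 genes were called.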

How the results depend on the processing

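With DMSO and NT pooled the members called against DMSO were 61 for dCBP, 52 for IHK-44 and 1 for A485. In that setting 5344, 4605 and 871 of 13001 genes were called. DESeq2 also called 1 member for A485, and 385 of 13260 genes. Library size scaling gave 49 for dCBP and 44 for IHK-44 against DMSO, where 3656 and 2892 of 13260 genes were called. At 6 h it gave 90 each, where 6861 and 6865 genes were called. Against JQAD it gave 77 for dCBP and 79 for IHK-44, where 5564 and 5378 genes were called. It gave 19 for A485 against dCBP (186 genes) and 1 for A485 against JQAD (997 genes). For the time dependence of dCBP it gave 1, higher instead of lower, where 1338 genes were called. With limma on log2(TPM + 1) the calls reversed to 19 lower and 0 higher for dCBP and 19 lower and 0 higher for IHK-44. Of all genes, 3984 were lower and 138 higher with dCBP, and 3925 lower and 70 higher with IHK-44. COX5B with IHK-44 against DMSO (control) went to -0.0539. DESeq2 called 26 for A485 against dCBP, 19 against IHK-44 and 1 for the time dependence of IHK-44. Of all genes it called 521, 424 and 1449. The length adjustment left 0, 3 and 1 for A485 against dCBP, IHK-44 and JQAD, where 18, 38 and 633 genes were called. It left 20 for IHK-44 against JQAD (4468 genes) and 2 for the time dependence of IHK-44 (1554 genes). Without a filter on low counts there were 20 for IHK-44 against JQAD and 1 for the time dependence of dCBP. There 3986 and 1435 of 17017 genes were called. The mean median ratio to DMSO became 0.25 (A485), -0.19 (dCBP) and -0.18 (IHK-44) with TPM in place of CPM, and 0.16 for IHK-44 after rescaling to a median of 0. The totals past 1.5-fold, 4 for A485, 76 for dCBP, 56 for IHK-44 and 1 for JQAD, became 0, 5, 2 and 0 past 2-fold, 2, 39 and 20 for the first 3 after rescaling, and 3 for JQAD with a pseudocount of 0.1, where 2 were higher. Coding rows held 43.0% to 53.9% of the TPM with A485 and 39.3% to 44.5% in the controls. Their share was lower with dCBP and IHK-44. The cause of these shifts was not tested.

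Leaving out 1 library at a time gave 0 to 38 for dCBP, 1 to 25 for IHK-44, 0 to 1 for A485 and 0 to 0 for JQAD against DMSO; 19 to 70, 14 to 53, 0 to 11 and 0 to 0 at 6 h; 0 to 13, 0 to 3, 0 to 1 and 0 to 0 for time dependence (the 13 for dCBP, without its 1000 nM library at 6 h, were 9 higher and 4 lower); and 0 to 1, 0 to 0, 0 to 0 and 0 to 0 for dose. The pairs gave 2 to 42 (A485 and dCBP), 1 to 16 (A485 and IHK-44), 0 to 2 (A485 and JQAD), 0 to 0 (dCBP and IHK-44), 16 to 50 (dCBP and JQAD) and 13 to 47 (IHK-44 and JQAD). Calls over all genes were not compared in the fits that leave out 1 library. The labels give no replicate numbers. The block of each dose and time pairs the compounds by condition and was chosen after seeing the data. With it A485 differed from dCBP in 2 members, from IHK-44 in 3 and from JQAD in 1. In these pairs 51, 58 and 634 of 13260 genes were called. With the block dCBP and IHK-44 differed from JQAD in 31 and 25 members, where 4531 and 4121 genes were called. At 1 CPM a gene rests on few reads, so low members such as COX6B2 and COX7A1 have wide intervals.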
